A study of Homo sapiens with 12 samples.

Results

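The genes described here are enzymes of glycolysis, gluconeogenesis, glycogen metabolism and the pentose phosphate pathway, with the kinases that regulate them. They were chosen by gene symbol from a list of 55, and 36 of the 55 stood among the genes listed in the expression tables. The other 19 (HK1, HK2, PFKM, PFKP, TPI1, PGK1, PKM, LDHB, PCK2, FBP1, G6PC, GYS2, PYGL, PGM1, PGM2, PFKFB1, PGLS, TALDO1 and TIGAR) were not analysed here. The samples are RNA-seq libraries of 2 established human liver cancer cell lines, HepG2 and LM3. Each line was transfected with an siRNA against the long noncoding RNA FASRL (siFASRL) or with a negative control siRNA (siNC) using RNAiMAX, and RNA was harvested 48 h later. Each of the 4 groups had 3 replicates, so that 12 libraries were compared. The labels do not say which siRNA sequence against FASRL was used. The authors report a check of knockdown efficiency in both lines. FASRL itself was not analysed here, so its loss was not checked in these libraries. Nothing in the labels says that the replicates came from separate cultures, so the p-values measure the spread between these samples, which may be technical.

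Glycolysis splits glucose into pyruvate, and lactate dehydrogenase turns pyruvate into lactate, while the pyruvate dehydrogenase complex passes it to the mitochondrial oxidation of carbon. The liver also runs this route backwards through gluconeogenesis and stores glucose as glycogen. The pentose phosphate pathway branches off at glucose 6-phosphate and yields NADPH and ribose 5-phosphate, and liver tumours are known for switching from liver isoforms of these enzymes to widely expressed ones.

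The values are the authors' normalized RSEM values. They are taken here to be scaled for transcript length, as RSEM's FPKM and TPM both are, but which of these they are is not stated and the scaling was not tested, so levels set side by side between genes, sums and isoform shares rest on this. They carry 2 decimals and are not read counts, so the depth of each library is unknown, and the precision of a value comes from the 3 replicates. Changes are given as log2 fold changes on the log2(value + 1) scale, some with their standard errors (SE), and adding 1 pulls the folds of weakly expressed genes towards 0. A gene was tested when its value reached 1 in at least 3 libraries of the fit, and "called" means a limma adjusted p under 0.05 over all tested genes. Among listed genes, HepG2 effects between -0.2 and -0.04 were nearly absent (15 of 8144 tested genes, 0.184%, against 751 of 7483, 10%, in LM3). How genes came to be listed is not given in the sources used here, and none (0) of the members lay in that range in HepG2.

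The labelled cell types were compared with hepatocyte markers, of which 10 of 12 chosen genes were listed. HepG2 siNC libraries expressed all 10, with sums of 4739.76, 4709.54 and 4280.6 and SERPINA1 as the most abundant. In LM3 siNC the sums were 14.77, 19.41 and 17.68, and the liver transcription factor HNF4A made up 97.4%, 74.2% and 80.5% of them. ALB was listed at 0.06, 0.62 and 0.4 in LM3 siNC against 850.8, 805.22 and 789.84 in HepG2 siNC, so LM3 lacked nearly all of the secreted hepatocyte proteins on the list. After siFASRL the sums were 2513.37, 2540.02 and 2577.54 in HepG2 and 7.55, 7.69 and 6.42 in LM3. In HepG2 9 of the 10 fell and APOA2 rose (0.27), although its groups overlapped, and in LM3 the 1 tested marker (HNF4A) fell. Beside the counts of this paragraph stand 44.3% of all tested genes lower and 44.8% higher in HepG2, with LM3 at 43.5% lower and 33.9% higher. The part of the shift in hepatocyte markers in the changes below was not tested. In such bulk samples, fewer cells of a type and less RNA per cell cannot be told apart. Of other cell types, the endothelial gene VWF stayed at or below 0.35 in every library. Of 6 listed fibroblast and stellate genes, COL3A1 and LUM were at or below 0.03 in every LM3 library, while COL1A1 was 11.14, 9.53 and 9.17 and PDGFRB 3.88, 4.75 and 3.91 in LM3 siNC. Their summed value was 81.18, 82.93 and 81.9 in HepG2 siNC, with COL3A1 the most abundant, and 54.21, 48.2 and 50.87 in HepG2 siFASRL. In LM3 the sum was 15.65, 14.64 and 13.56 under siNC, mostly COL1A1, and 5.06, 6.0 and 5.28 under siFASRL. In HepG2 4 of the 5 tested fell, COL3A1 (-1.52) and LUM (-1.44) the most, and ACTA2 rose, and in LM3 both of the 2 tested fell. Of the 4 listed biliary genes, KRT7 and KRT19 rose and EPCAM and SOX9 fell in HepG2, and in LM3, where 2 were tested, KRT7 rose and EPCAM fell. Their sum, mostly KRT7, was 514.65, 554.32 and 507.73 in HepG2 siNC and 1040.39, 1095.21 and 1053.75 in HepG2 siFASRL. In LM3 it went from 188.29, 213.33 and 216.33 under siNC to 357.39, 368.45 and 358.56 under siFASRL. Of 6 immune genes 2 were listed, LYZ and CD68, with sums of 126.62, 123.08 and 121.65 in HepG2 siNC and 96.96, 87.24 and 88.82 in HepG2 siFASRL. LYZ was the most abundant of the 2 in HepG2 siNC and fell (-0.83), while CD68 was not called (0.11). In LM3 the immune sums were 18.19, 15.1 and 16.19 under siNC and 18.43, 18.49 and 19.03 under siFASRL, mostly CD68. There CD68 rose (0.23) and LYZ fell (-0.30), although the LYZ groups overlapped. The part of these lists in the changes below was not tested.

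In HepG2 all 36 members passed the filter on low values. Of these, 22 fell after siFASRL, against 44.3% of all tested genes, and 7 rose, against 44.8% of all tested genes. The median log2 fold change of the members was -0.43, beside 0.10 over all tested genes. When a log2 fold change of 1 or more in either direction was also asked for, 4 members fell (ALDOC, PKLR, KHK and PFKFB4), against 6.79% of all tested genes, and 0 rose, against 3.61% of all tested genes. In LM3 34 members passed the filter, and PKLR and GCKR did not, being listed at or near 0. There 22 fell, against 43.5% of all tested genes, and 2 rose, against 33.9% of all tested genes, with medians of -0.42 for the members and -0.06 for all tested genes. Past the fold threshold 4 fell (ALDOC, PDK3, PDK2 and KHK), against 6.2% of all tested genes, and 1 rose (RPIA), against 1.42% of all tested genes. PKLR in HepG2 and PDK3 in LM3 stayed under 1 in every siFASRL library and so passed the filter only through siNC. Without such genes 21 of 35 members fell in HepG2 (42.8% of all such genes), 3 of them past the fold threshold (6.1%). In LM3 21 of 33 fell (41.8%), 3 of them past that threshold (5.3%).

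Of the 34 members tested in both lines, 17 fell in both, against 36.0% of the 7349 genes tested in both, and 1 (RPIA) rose in both, against 29.6% of these genes. Another 3 members (PCK1, PDK4 and PYGB) rose in HepG2 and fell in LM3 with a called difference between the lines, against 4.68% of these genes. In 4 members (ALDOA, LDHA, PFKL and TKT) neither line gave a call, although quantile normalization gave lower calls for ALDOA, LDHA and TKT in LM3 and for LDHA in HepG2. Of the 7 members with a mean of at least 100 over the 12 libraries (GAPDH, ENO1, LDHA, ALDOA, TKT, PGAM1 and GPI), 3 fell and 0 rose in HepG2, with effects from -0.53 to 0.10. In LM3 2 of the 7 fell and 1 rose, with effects from -0.39 to 0.41. Among the 29 less abundant members 19 fell and 7 rose in HepG2, and 20 of the 27 tested fell and 1 rose in LM3. For both classes the shares of all tested genes are again 44.3% lower and 44.8% higher in HepG2 and 43.5% and 33.9% in LM3.

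**Figure D1:**
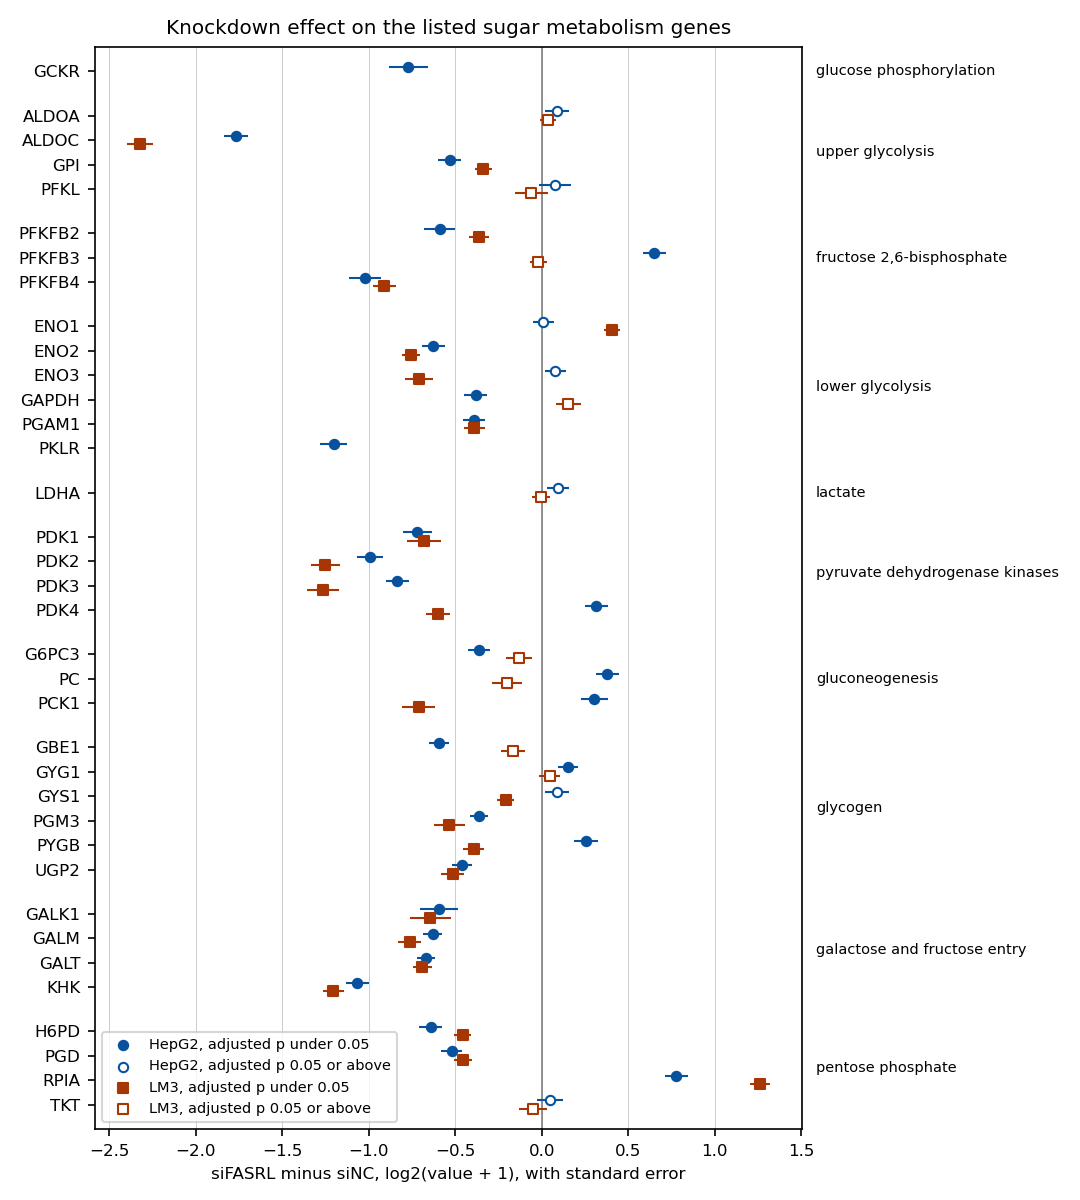
Log2 fold change after siFASRL (horizontal axis, log2(value + 1), bars are standard errors) of the 36 listed members, grouped by role, in HepG2 (circles) and LM3 (squares), with filled symbols for a limma adjusted p under 0.05. ALDOC lay farthest to the left in both lines (-1.77 and -2.32) and RPIA farthest to the right (0.78 and 1.26), and GCKR and PKLR have no LM3 symbol because they were not tested there.

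In the upper part of glycolysis, ALDOC, the aldolase isoform best known from brain, had the largest decrease of all members in both lines on the log2(value + 1) scale, although as a share of siNC less was left of PKLR in HepG2. It was 70.69, 71.83 and 62.08 in the HepG2 siNC libraries and 20.1, 18.66 and 19.08 in the siFASRL libraries. In LM3 it was 18.36, 17.04 and 16.07 under siNC and 2.37, 2.95 and 2.57 under siFASRL. Every siFASRL library lay far below every siNC library of its line, and 28.3% of the siNC mean was left in HepG2 and 15.3% in LM3. The log2 fold changes were -1.77 (SE 0.069, limma adjusted p = 5.09e-08) and -2.32 (SE 0.0742, limma adjusted p = 1.95e-07). The larger decrease in LM3 was called (difference -0.56, limma interaction adjusted p = 0.000765) but was -0.02 after quantile normalization (limma interaction adjusted p = 0.891).

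ALDOA, the main aldolase of both lines, was 1315.52, 1286.06 and 1237.57 in HepG2 siNC and 1481.09, 1345.75 and 1260.71 in HepG2 siFASRL. LM3 gave 528.9, 542.05 and 543.87 under siNC and 561.14, 554.35 and 540.65 under siFASRL. The groups overlapped in both lines and neither effect was called (0.09 and 0.04), although quantile normalization gave -0.21 in LM3 (limma adjusted p = 0.00428). Because ALDOA was so much more abundant, the decrease of ALDOC lowered its share of the summed aldolase value from 5.06% ± 0.259 to 1.4% ± 0.0807 in HepG2 and from 3.09% ± 0.245 to 0.474% ± 0.0544 in LM3 (SD, n = 3). GPI, which interconverts glucose 6-phosphate and fructose 6-phosphate, fell to 69.2% of siNC in HepG2 (log2 fold change -0.53, limma adjusted p = 4.25e-05) and to 79.1% in LM3 (-0.34, limma adjusted p = 0.000251). PFKL, the liver isoform of the committing enzyme phosphofructokinase, was 30.03, 36.89 and 29.05 in HepG2 siNC and 31.44, 36.73 and 32.88 in HepG2 siFASRL. Its LM3 values were 25.87, 32.82 and 33.97 (siNC) and 29.85, 28.6 and 29.77 (siFASRL). The PFKL groups overlapped in both lines and neither effect was called (0.08 and -0.06), although leaving out siNC replicate 2 in HepG2 gave a called 0.18 and leaving out siNC replicate 1 in LM3 a called -0.18. GCKR, the protein that holds glucokinase inactive in the hepatocyte nucleus, was 4.77, 4.5 and 3.85 in HepG2 siNC and 1.99, 1.76 and 2.75 in HepG2 siFASRL, without overlap (log2 fold change -0.77, SE 0.112, limma adjusted p = 0.00012). In LM3 GCKR was listed at 0 in all 6 libraries.

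The PFKFB enzymes make or remove fructose 2,6-bisphosphate, the strongest activator of phosphofructokinase, and 3 isoforms were listed. PFKFB4, which is induced in many tumours, was 29.62, 35.17 and 27.18 in HepG2 siNC and 13.93, 13.96 and 15.66 in HepG2 siFASRL. The LM3 values were 5.76, 6.7 and 5.65 under siNC and 2.79, 2.71 and 2.72 under siFASRL. All siFASRL libraries were lower, with 47.4% and 45.4% of siNC left, and the log2 fold changes were -1.02 (limma adjusted p = 5.28e-06) and -0.91 (limma adjusted p = 4.58e-06). In HepG2 the change fell short of the fold threshold without siNC replicate 2 and, by less than 0.01, without siFASRL replicate 1 or 2.

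PFKFB3, the isoform with the highest kinase activity, was 13.87, 14.1 and 12.47 in HepG2 siNC and 23.06, 21.16 and 20.99 in HepG2 siFASRL. LM3 libraries held 8.6, 8.36 and 8.33 under siNC and 8.4, 8.01 and 8.53 under siFASRL. It thus rose in HepG2, where the groups stood apart (log2 fold change 0.65, SE 0.0664, limma adjusted p = 1.16e-05), and overlapped in LM3 (-0.02, limma adjusted p = 0.746), where quantile normalization turned it to a called 0.16. The 2 lines differed by -0.67 (limma interaction adjusted p = 1.82e-05). PFKFB2, an isoform of heart and kidney, was 6.86, 5.5 and 6.77 in HepG2 siNC and 4.34, 3.5 and 3.84 in HepG2 siFASRL. In LM3 the siNC libraries had 18.88, 16.67 and 16.84 and the siFASRL libraries 13.07, 13.52 and 13.41. It was lower in every siFASRL library of its line and fell in both (-0.59, limma adjusted p = 0.00017, and -0.36, limma adjusted p = 0.000554). As shares of the summed PFKFB value in HepG2, PFKFB4 went from 60.5% ± 3.19 to 36.2% ± 2.49 and PFKFB3 from 26.7% ± 0.91 to 54.1% ± 2.06 (SD, n = 3), so that the leading isoform changed. In LM3 PFKFB2 led in every library, at 54.7% ± 2.13 under siNC and 54.7% ± 0.985 under siFASRL, while the share of PFKFB3 went from 26.4% ± 0.581 to 34.1% ± 0.903 and that of PFKFB4 from 18.9% ± 1.96 to 11.2% ± 0.24 (SD, n = 3).

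**Figure D2:**
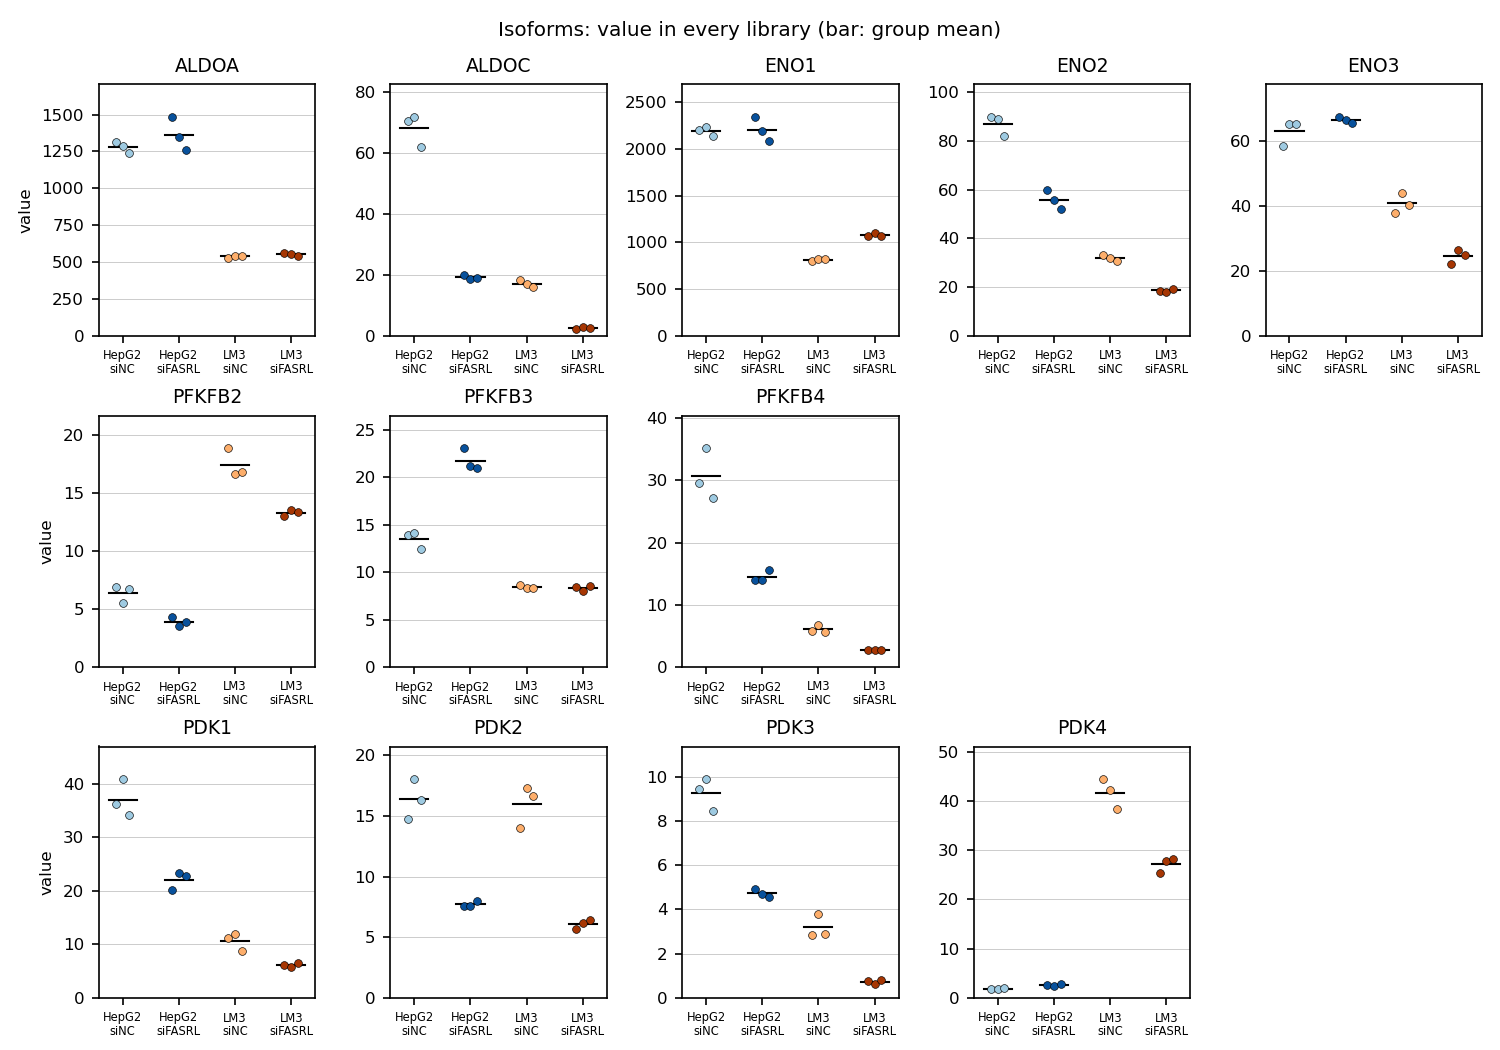
Value in every library (vertical axis, normalized RSEM value, linear from 0) of aldolase, enolase, PFKFB and PDK isoforms in the 4 groups, with points for libraries and bars for group means. ALDOA and ENO1 differ mainly by cell line, while ALDOC, ENO2, PFKFB4, PDK1, PDK2 and PDK3 are lower in the siFASRL libraries of both lines and PFKFB3 reaches 20.99 to 23.06 in HepG2 siFASRL.

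The lower part of glycolysis includes 3 enolase isoforms. ENO1, the ubiquitous enolase, was 2200.45, 2233.86 and 2134.96 in HepG2 siNC and 2340.13, 2189.31 and 2085.75 in HepG2 siFASRL. In LM3 it was 798.83, 825.43 and 828.32 under siNC and 1071.29, 1106.13 and 1074.02 under siFASRL. The groups overlapped in HepG2 (log2 fold change 0.01), and in LM3 each siFASRL library was higher (0.41, SE 0.0476, limma adjusted p = 7.44e-05), with a called difference between the lines (0.40, limma interaction adjusted p = 0.000509). ENO2, the neuronal enolase, was 89.62, 88.75 and 81.82 in HepG2 siNC and 59.77, 55.68 and 52.19 in HepG2 siFASRL. For LM3 the values were 33.31, 32.14 and 30.9 in siNC and 18.43, 18.08 and 19.38 in siFASRL. The siFASRL libraries were lower in both lines, without overlap (-0.63, limma adjusted p = 1.7e-05, and -0.75, limma adjusted p = 4.41e-06). ENO3, the muscle enolase, was 63.00 ± 3.98 and 66.54 ± 0.82 in HepG2 without a call (0.08), and fell in LM3 from 40.81 ± 3.12 to 24.6 ± 2.13 (SD, n = 3; -0.71, limma adjusted p = 5.5e-05), and the lines differed by -0.79 (limma interaction adjusted p = 3.84e-05). ENO1 therefore made up 91.8% ± 0.266 of the summed enolase value in LM3 siNC and 96.2% ± 0.156 in LM3 siFASRL (SD, n = 3).

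GAPDH, which oxidizes glyceraldehyde 3-phosphate and was the most abundant member in every library, was 8300.67, 9317.84 and 7975.3 in HepG2 siNC and 6517.44, 6660.83 and 6432.05 in HepG2 siFASRL. LM3 gave 3876.55, 4641.44 and 4515.67 under siNC and 4806.95, 4953.66 and 4710 under siFASRL. The siFASRL libraries lay below siNC in HepG2 (log2 fold change -0.38, limma adjusted p = 0.000456), a call that quantile normalization turned to 0.04 and ended. In LM3 they lay above siNC without a call (0.155, limma adjusted p = 0.0823). Median-of-ratios scaling gave a called 0.23 there, and leaving out LM3 siNC replicate 2 a called 0.20. The lines differed by 0.54 (limma interaction adjusted p = 0.000838), which quantile normalization lowered to 0.10 without a call. PGAM1, a phosphoglycerate mutase, fell by similar amounts in both lines, to 76.1% and 76.3% of siNC, with log2 fold changes of -0.39 in each. LDHA, the lactate dehydrogenase subunit of glycolytic tumours, was 1495.67, 1325.57 and 1453.19 in HepG2 siNC and 1592.02, 1499.32 and 1474.03 in HepG2 siFASRL. Its LM3 values were 883.67, 807.33 and 826.36 (siNC) and 836.3, 837.4 and 836.37 (siFASRL). Its groups overlapped in both lines and neither effect was called (0.10 and -0.00), although quantile normalization gave called values of -0.16 in HepG2 and -0.21 in LM3.

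PKLR, the pyruvate kinase of liver and red cells, was 2.32, 1.9 and 2.29 in HepG2 siNC and 0.32, 0.5 and 0.31 in HepG2 siFASRL. All 3 siFASRL libraries lay under 0.6 and 17.4% of the siNC mean was left (log2 fold change -1.20, SE 0.0771, limma adjusted p = 6.4e-07) and quantile normalization took it below the fold threshold. Since PKLR passed the filter only through siNC, its test is given as a description. In LM3 PKLR was listed at 0.05, 0 and 0 under siNC and at 0 in the siFASRL libraries, which leaves nothing to fall.

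The pyruvate dehydrogenase kinases phosphorylate and switch off the pyruvate dehydrogenase complex. PDK2, a widely expressed isoform, was 14.76, 18.01 and 16.32 in HepG2 siNC and 7.59, 7.54 and 7.97 in HepG2 siFASRL. The LM3 values were 13.96, 17.32 and 16.6 under siNC and 5.71, 6.17 and 6.45 under siFASRL. The groups stood apart in both lines, with 47.1% and 38.3% of siNC left (log2 fold change -0.99, limma adjusted p = 1.49e-06, and -1.25, limma adjusted p = 3.1e-06). PDK3 was 9.44, 9.88 and 8.44 in HepG2 siNC and 4.94, 4.7 and 4.57 in HepG2 siFASRL. In LM3 PDK3 was 2.85, 3.81 and 2.89 under siNC and 0.78, 0.61 and 0.81 under siFASRL. It fell to 51.2% of siNC in HepG2 (-0.84, limma adjusted p = 2.39e-06) and to 23.0% in LM3 (-1.27, limma adjusted p = 5.29e-06), where it passed the filter only through siNC, so that test is a description. The 2 lines differed by -0.43 (limma interaction adjusted p = 0.0105), a gap that shrank to -0.00 after quantile normalization. PDK1, the isoform induced by low oxygen, was 36.16, 40.81 and 34.14 in HepG2 siNC and 20.11, 23.36 and 22.84 in HepG2 siFASRL. In LM3 the siNC libraries had 11.11, 11.92 and 8.82 and the siFASRL libraries 6.2, 5.84 and 6.56. No siFASRL library reached the siNC libraries of its line, and PDK1 fell to 59.7% of siNC in HepG2 (-0.72, limma adjusted p = 2.38e-05) and to 58.4% in LM3 (-0.68, limma adjusted p = 0.000261).

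PDK4, the isoform induced in fasting, went the other way in HepG2. It was 1.8, 1.79 and 2.1 in HepG2 siNC and 2.56, 2.44 and 2.82 in HepG2 siFASRL. LM3 libraries held 44.42, 42.17 and 38.46 under siNC and 25.3, 27.81 and 28.25 under siFASRL. The siFASRL libraries were thus higher in HepG2 (log2 fold change 0.32, limma adjusted p = 0.00135) and lower in LM3 (-0.60, limma adjusted p = 6.8e-05), with a difference of -0.92 (limma interaction adjusted p = 7.02e-06). The sum of the 4 kinases was 62.16, 70.49 and 61.0 in HepG2 siNC and 35.2, 38.04 and 38.2 in HepG2 siFASRL. In LM3 the sum was 72.34, 75.22 and 66.77 under siNC and 37.99, 40.43 and 42.07 under siFASRL. The summed level was lower in every siFASRL library of both lines, although the make-up differed, with PDK1 at 57.3% ± 1.2 of the sum in HepG2 siNC and PDK4 at 58.4% ± 2.75 in LM3 siNC (SD, n = 3).

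The promoters of members past the fold threshold after siFASRL are shown to let their sequences be compared. RefSeq promoter entries (GRCh38.p14, 250 bases before each start) were matched for 33 of the 36 listed members, 48 entries in all. The sequences below are those entries up to the first base of any exon annotated in GENCODE v29, read 5′ to 3′ on the gene's strand, for PDK2 (chr17:50095101.0-50095274.0, plus strand), PDK3 (chrX:24465036.0-24465220.0, plus strand), PKLR (chr1:155301439.0-155301688.0, minus strand, the farther upstream of its 2 starts) and RPIA (chr2:88691423.0-88691643.0, plus strand), which rose. Of the other members past that threshold, the ALDOC window has an annotated exon at its far end, so no bases of it are printed. The PFKFB4 window meets an annotated exon after 36 bases and is not printed either. No entry was matched for KHK. Capitals mark CACGTG, the E-box that reads the same on both strands, and ACGTG, also searched as CACGT on the other strand. ACGTG is a form of the core of the hypoxia response element. The form GCGTG was neither searched for nor marked, so it can stand in these stretches in lower case. Each CACGTG holds ACGTG as well, so the motifs overlap.

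PDK2: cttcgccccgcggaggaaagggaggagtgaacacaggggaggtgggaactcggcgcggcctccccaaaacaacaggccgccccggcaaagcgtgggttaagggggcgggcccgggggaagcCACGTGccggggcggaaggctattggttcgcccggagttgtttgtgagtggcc

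PDK3: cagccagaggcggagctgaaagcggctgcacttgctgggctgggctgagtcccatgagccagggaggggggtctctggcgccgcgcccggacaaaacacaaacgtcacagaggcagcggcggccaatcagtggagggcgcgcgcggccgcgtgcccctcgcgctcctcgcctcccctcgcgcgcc

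PKLR: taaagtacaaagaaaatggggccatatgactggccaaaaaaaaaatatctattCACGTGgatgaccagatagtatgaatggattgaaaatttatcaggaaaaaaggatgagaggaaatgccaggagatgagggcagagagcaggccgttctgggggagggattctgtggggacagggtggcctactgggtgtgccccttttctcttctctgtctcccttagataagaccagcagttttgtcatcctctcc

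RPIA: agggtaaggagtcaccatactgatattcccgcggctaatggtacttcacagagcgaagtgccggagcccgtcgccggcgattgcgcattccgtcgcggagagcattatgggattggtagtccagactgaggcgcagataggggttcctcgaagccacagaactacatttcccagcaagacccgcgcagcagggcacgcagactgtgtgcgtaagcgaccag

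PDK2 and PKLR each held 1 CACGTG in these stretches, which began 129 and 197 bases before the start, and the printed stretches of PDK3 and RPIA held 0 of either motif. Over its whole 250 bases the PDK3 entry held 1 ACGTG, which lies outside the printed stretch, and the RPIA entry held 0. The entry of the nearer PKLR start and the other 2 entries of PDK2, not printed, held 0 of either motif as well. Over the whole 250 bases, 12 of the 48 entries (25.0%) held CACGTG and 23 (47.9%) held ACGTG. Among all 35116 promoter entries, which are not limited to the genes listed in the expression tables, the shares were 6.34% and 18.5%. Several entries of a gene can overlap. Counted by gene, 10 of 33 members (30.3%) held CACGTG and 19 (57.6%) held ACGTG, against 7.73% and 21.7% of 27305 genes. Shares among the listed genes alone were not analysed here. A match is a description of the letters and not a site or a cause, and no match says only that these letters are not in this window. The E-box entries of members included ALDOC and PDK2, which fell in both lines, PFKFB3, which rose in HepG2, and LDHA, which had no call.

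Gluconeogenesis was represented by PC, PCK1 and G6PC3. PCK1, the enzyme that turns oxaloacetate into phosphoenolpyruvate, was 3.16, 3.74 and 4.02 in HepG2 siNC and 5, 4.41 and 4.73 in HepG2 siFASRL. In LM3 it was 5.52, 4.04 and 4.34 under siNC and 2.28, 2.54 and 2.44 under siFASRL. Every siFASRL library was higher in HepG2 (log2 fold change 0.30, SE 0.078, limma adjusted p = 0.00444) and lower in LM3 (-0.71, SE 0.0928, limma adjusted p = 0.000139). The difference of -1.02 between the lines was the largest negative one among the members (limma interaction adjusted p = 3.61e-05). PC, which makes oxaloacetate from pyruvate, was 28.48, 33.39 and 31.17 in HepG2 siNC and 39.76, 41.32 and 40.55 in HepG2 siFASRL. For LM3 the values were 9.77, 12.78 and 11.81 in siNC and 10.11, 9.79 and 9.44 in siFASRL. PC was higher in each HepG2 siFASRL library (0.38, limma adjusted p = 0.000426), while the LM3 groups overlapped (-0.20, limma adjusted p = 0.0632), and the lines differed by -0.58 (limma interaction adjusted p = 0.00112). The LM3 value was called without LM3 siNC replicate 1 (-0.30) and in the fit of all 12 libraries. G6PC3, a glucose 6-phosphatase of most tissues, fell in HepG2 to 77.6% of siNC (-0.36, limma adjusted p = 0.00044) and overlapped in LM3 (-0.13), where quantile normalization gave a called -0.21, and the difference between the lines was not called (0.23, limma interaction adjusted p = 0.0761), although it was called under median-of-ratios scaling (0.31), under quantile normalization (0.32) and without LM3 siNC replicate 1 (0.30).

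**Figure D3:**
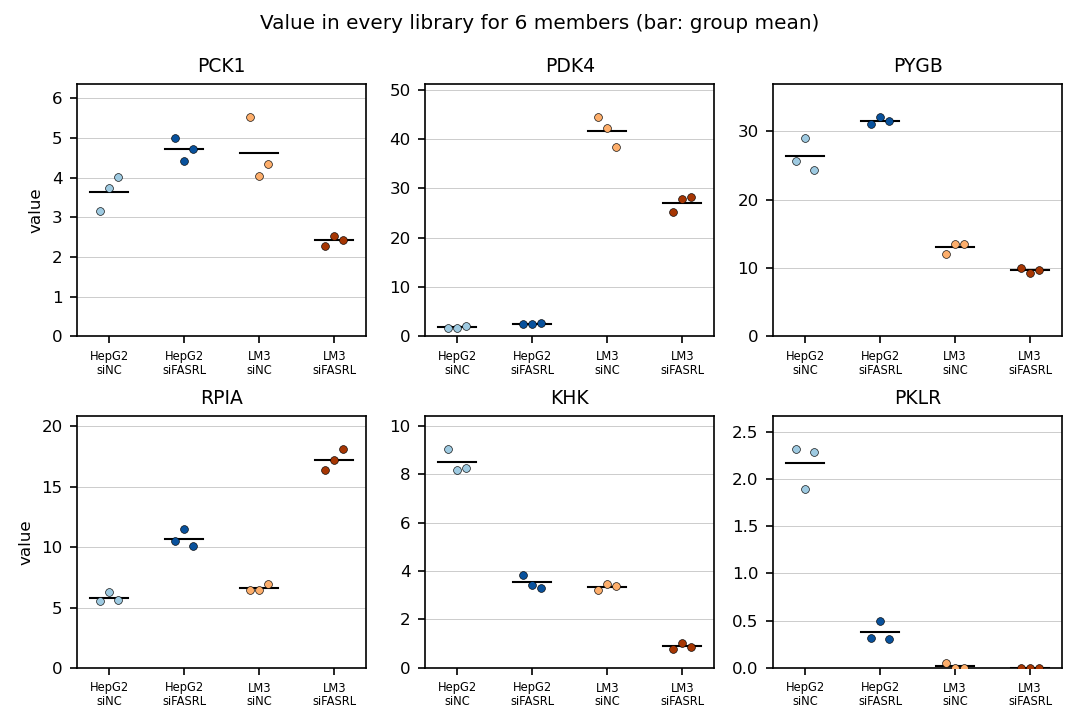
Value in every library (vertical axis, normalized RSEM value from 0) of PCK1, PDK4, PYGB, RPIA, KHK and PKLR in the 4 groups, with points for libraries and bars for group means. PCK1, PDK4 and PYGB are higher with siFASRL in HepG2 and lower in LM3, RPIA is higher and KHK lower with siFASRL in both lines, and PKLR is at or near 0 in LM3.

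Among the glycogen enzymes, PYGB, the brain isoform of glycogen phosphorylase that releases glucose units, was 25.69, 29.04 and 24.33 in HepG2 siNC and 31.11, 32.07 and 31.58 in HepG2 siFASRL. LM3 gave 12, 13.6 and 13.58 under siNC and 10.03, 9.29 and 9.75 under siFASRL. It therefore rose in HepG2 (log2 fold change 0.26, limma adjusted p = 0.00607) and fell in LM3 (-0.39, limma adjusted p = 0.000463), without overlap in either line. GBE1, the branching enzyme, was 53.82, 50 and 49.21 in HepG2 siNC and 33.08, 34.51 and 32.69 in HepG2 siFASRL. Its LM3 values were 8.19, 7.08 and 6.77 (siNC) and 6.23, 6.58 and 6.46 (siFASRL). It fell in HepG2 (-0.59, limma adjusted p = 9.17e-06), in LM3 the siFASRL libraries lay just under siNC without a call (-0.17, limma adjusted p = 0.0546) but with one in the fit of all 12 libraries and without siNC replicate 3 (-0.22), and the lines differed by a called amount (0.43, limma interaction adjusted p = 0.00155). UGP2, which makes the UDP-glucose used for glycogen, fell to 72.4% of siNC in HepG2 and to 69.5% in LM3, and PGM3, a phosphomutase that acts on N-acetylglucosamine phosphate, to 76.3% and 66.4%. GYS1, the muscle and general glycogen synthase, was not called in HepG2 (0.09) and fell in LM3 to 86.2% of siNC (-0.21, limma adjusted p = 0.0047), and the called difference between the lines (-0.29, limma interaction adjusted p = 0.0114) was lost under both other scalings. GYG1, the primer protein glycogenin, was 18.83, 19.5 and 18.64 in HepG2 siNC and 22.08, 21.58 and 20 in HepG2 siFASRL. In LM3 the siNC libraries had 27.17, 30.53 and 29.22 and the siFASRL libraries 28.69, 30.78 and 30.3. The HepG2 siFASRL libraries lay above siNC (0.15, limma adjusted p = 0.0319), a call that was lost under both other scalings and in 4 of the fits with a replicate left out, and the LM3 groups overlapped (0.05), with no called difference between the lines (-0.11, limma interaction adjusted p = 0.296).

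The enzymes through which galactose and fructose enter the pathway fell in both lines in 4 of 4 listed, where 36.0% of the genes tested in both lines did so. KHK, the ketohexokinase that starts fructose breakdown in liver, was 9.04, 8.15 and 8.25 in HepG2 siNC and 3.84, 3.43 and 3.31 in HepG2 siFASRL. The LM3 values were 3.22, 3.46 and 3.39 under siNC and 0.8, 1.03 and 0.85 under siFASRL. The siFASRL libraries lay well below siNC in both lines, with 41.6% and 26.6% left (log2 fold change -1.07, limma adjusted p = 5.36e-07, and -1.20, limma adjusted p = 8.74e-07). Under quantile normalization both stayed called but fell short of the fold threshold. The galactose mutarotase GALM fell to 62.6% of siNC in HepG2 and 55.3% in LM3, the galactokinase GALK1 to 64.8% and 61.7%, and the uridylyltransferase GALT to 59.7% and 57.8%. None (0) of the 4 had a called difference between the lines, although that of KHK (-0.14) was a called 0.32 after quantile normalization and a called -0.56 with a pseudocount of 0.1.

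In the pentose phosphate pathway RPIA, which interconverts ribulose 5-phosphate and ribose 5-phosphate, was 5.56, 6.25 and 5.63 in HepG2 siNC and 10.54, 11.48 and 10.06 in HepG2 siFASRL. LM3 libraries held 6.43, 6.41 and 6.97 under siNC and 16.38, 17.17 and 18.13 under siFASRL. RPIA was higher in every siFASRL library, 1.84-fold in HepG2 (log2 fold change 0.78, SE 0.0673, limma adjusted p = 4.05e-06) and 2.61-fold in LM3 (1.26, SE 0.058, limma adjusted p = 5.99e-07). The rise was larger in LM3 (difference 0.48, limma interaction adjusted p = 0.000611). PGD, the 6-phosphogluconate dehydrogenase that yields NADPH, was 88.98, 86.24 and 92.41 in HepG2 siNC and 65.89, 59.67 and 60.29 in HepG2 siFASRL. For LM3 the values were 47.29, 46.04 and 44.38 in siNC and 32.55, 33.2 and 33.95 in siFASRL. All siFASRL libraries were lower (-0.52, limma adjusted p = 2.99e-05, and -0.45, limma adjusted p = 5.11e-05). H6PD, which carries out the first steps of the branch in the endoplasmic reticulum, fell to 59.0% of siNC in HepG2 and 65.3% in LM3, a call that quantile normalization ended in LM3 (-0.08). TKT, a transketolase of the non-oxidative branch, was 419.07, 495.74 and 460.5 in HepG2 siNC and 447.29, 487.84 and 484.87 in HepG2 siFASRL. Its LM3 values were 489.43, 601.98 and 578.72 (siNC) and 529.09, 553.14 and 525.57 (siFASRL). The TKT groups overlapped in both lines and neither effect was called (0.05 and -0.05), although quantile normalization gave a called -0.27 in LM3 and leaving out LM3 siNC replicate 1 a called -0.14.

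The knockdown effect differed between the lines in 15 of the 36 members, against 46.7% of all tested genes. It was more negative in LM3 for 9 and more positive for 6, a split that depends on the scaling, since median-of-ratios scaling gave 8 and 9 and quantile normalization 6 and 9. Of the 6, the differences of GCKR and PKLR came from genes listed at or near 0 in LM3, so they record that there was nothing to fall. Over all tested genes, called differences were positive in 41.7%, in 54.0% after median-of-ratios scaling and in 49.5% after quantile normalization.

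Under siNC, LM3 was compared with HepG2 at baseline, and these libraries also serve as controls of the knockdown comparisons. Of the 36 members, 28 were lower in LM3, against 40.6% of all tested genes, and 6 were higher, against 40.4% of all tested genes. The median of the members was -0.77, beside 0.00 over all tested genes. Past the fold threshold 12 were lower, against 15.6% of all tested genes, and 2 were higher, against 7.74% of all tested genes. Quantile normalization moved the median of all tested genes by 0.14 and left 27 members lower and 6 higher, with GAPDH no longer called (-0.10). GCKR and PKLR passed the filter only through HepG2, where they are expressed, so no fold is given for them. Without genes that stayed under 1 in every library of either group, 26 of 34 members were lower (36.1% of all such genes) and 6 higher (42.9%), and 10 were lower past the fold threshold (9.52%).

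Leaving GCKR and PKLR aside, PDK4 showed the widest gap, 22.0-fold higher in LM3 (log2 fold change 3.88, SE 0.0731, limma adjusted p = 1.05e-09). All LM3 siNC libraries were above 38 and all HepG2 siNC libraries below 2.2. PFKFB2 was 2.74-fold higher (1.33, limma adjusted p = 1.84e-06) and GYG1 1.53-fold higher (0.58, limma adjusted p = 2.99e-05). TKT, PCK1 and RPIA were called slightly higher in LM3 (0.28, 0.28 and 0.16), and each call was lost in at least 4 fits with a replicate left out. GBE1 was 6.94-fold lower in LM3 (-2.64, limma adjusted p = 1.18e-08), at 8.19, 7.08 and 6.77 against 53.82, 50 and 49.21 in HepG2. PFKFB4 was 5.08-fold lower (-2.16), ALDOC 3.98-fold (-1.93), PDK1 3.49-fold (-1.72), PDK3 2.91-fold (-1.30), PC 2.71-fold (-1.37), ENO2 2.7-fold (-1.41), ENO1 2.68-fold (-1.42), KHK 2.53-fold (-1.12) and ALDOA 2.38-fold (-1.25). PFKL and PDK2 were not called (-0.05 and -0.04), and their groups overlapped. The summed value of all 36 members was 4.60%, 4.89% and 4.39% of the listed total in HepG2 siNC and 2.40%, 2.64% and 2.59% in LM3 siNC. After siFASRL it was 3.92%, 3.78% and 3.70% in HepG2, below every siNC library, and 2.47%, 2.52% and 2.44% in LM3, within the siNC range. GAPDH carried most of the HepG2 difference: without it the sum was 2.11%, 2.10% and 2.03% under siNC and 2.05%, 1.90% and 1.86% under siFASRL, and the groups overlapped. In LM3 the sum without GAPDH was 1.18%, 1.2% and 1.19% under siNC and 1.09%, 1.1% and 1.08% under siFASRL, so that every siFASRL library lay below siNC as a share. The summed values themselves overlapped, at 3727.45, 3829.98 and 3814.15 under siNC and 3763.71, 3842.28 and 3759.15 under siFASRL, because the total of all listed genes was higher in the siFASRL libraries.

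**Figure D4:**
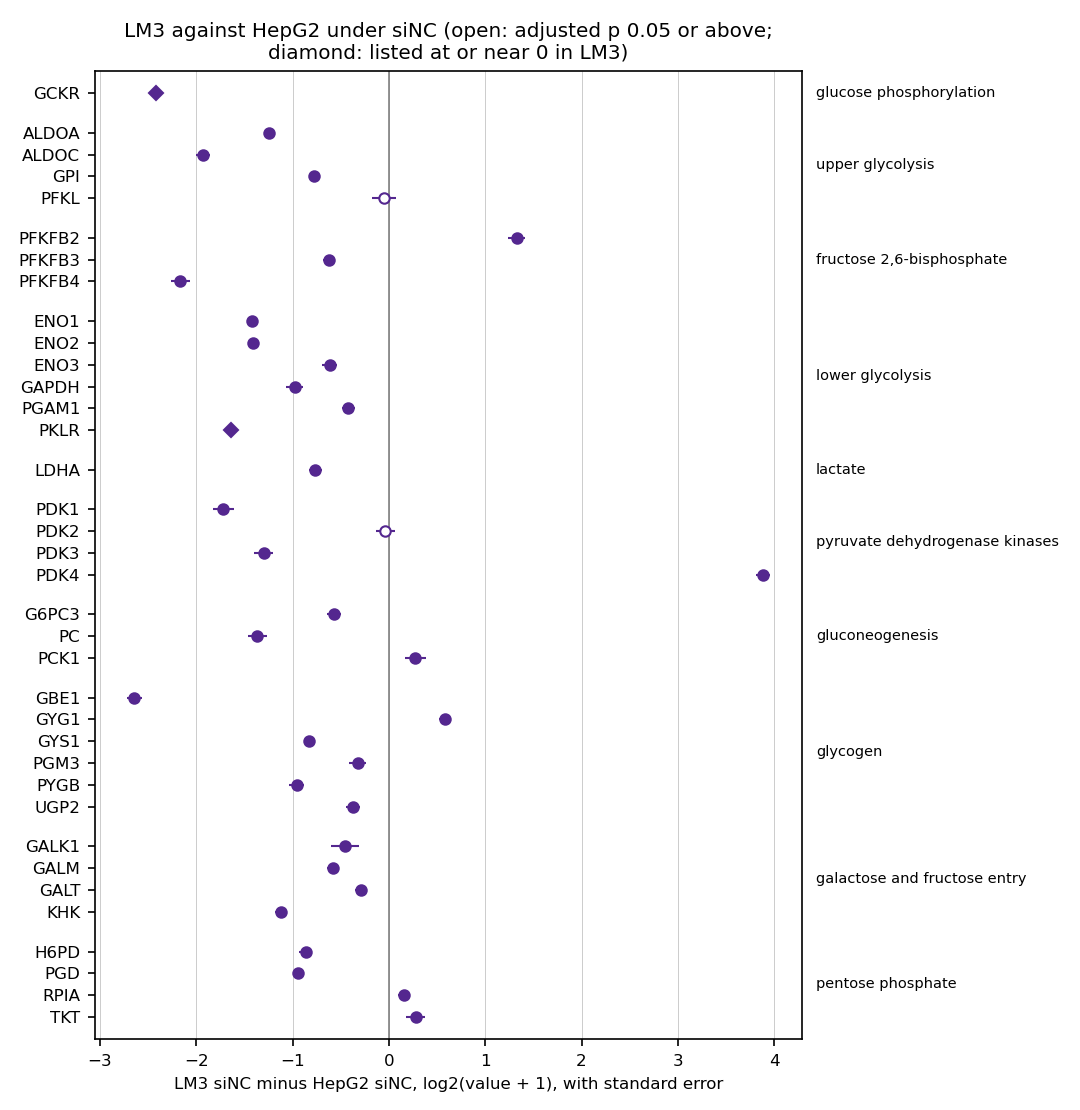
Log2 difference between LM3 siNC and HepG2 siNC (horizontal axis, log2(value + 1), bars are standard errors) of the 36 listed members, grouped by role, with open symbols for a limma adjusted p of 0.05 or above and diamonds for genes listed at or near 0 in LM3. Most members lie left of 0, and PDK4 (3.88) and PFKFB2 (1.33) lie right of 1.

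Of 93 other genes of these pathways, 55 were listed. In HepG2 54 were tested, 35 fell and 15 rose, with a median of -0.47, and in LM3 48 were tested, 30 fell and 9 rose, with a median of -0.29. Beside these counts and those of the lists that follow stand 44.3% of all tested genes lower and 44.8% higher in HepG2, with LM3 at 43.5% lower and 33.9% higher. The list of glucose, lactate and pyruvate carriers was drawn from carrier families, and some of its genes have other main substrates. Of the 15 listed, 12 of 14 tested fell in HepG2 and 8 of 10 in LM3. Of the 12, 2 (SLC2A2 and SLC2A10) passed the filter only through siNC. SLC16A1, a lactate carrier, fell (-1.14 and -0.45), while the glucose carrier SLC2A3 rose from 241.5 ± 18.1 to 401.8 ± 23.4 in HepG2 and from 19.42 ± 1.63 to 35.66 ± 0.381 in LM3 (SD, n = 3).

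Among 11 listed regulators, which include HNF4A of the hepatocyte list, 6 fell and 3 rose in HepG2, and of 10 tested in LM3 5 fell and 4 rose. MLXIPL, the carbohydrate response factor ChREBP, was 14.39, 13.49 and 13.87 in HepG2 siNC and 2.77, 2.14 and 2.87 in HepG2 siFASRL. LM3 gave 4.34, 2.83 and 2.52 under siNC and 0.64, 0.82 and 0.7 under siFASRL. The groups did not overlap in either line (log2 fold change -2.06, limma adjusted p = 5.37e-08, and -1.28, limma adjusted p = 4.72e-05), and in LM3 MLXIPL passed the filter only through siNC. HIF1A, the oxygen-regulated factor, fell (-0.78 and -0.72) and MYC rose (0.62 and 0.98). TXNIP, an inhibitor of glucose uptake, rose in LM3 from 25.09 ± 1.46 to 66.49 ± 1.36 (SD, n = 3; 1.37, limma adjusted p = 3.92e-07) and was not called in HepG2 (0.06), a called difference of 1.31 between the lines.

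Of 7 listed glycogen regulators 5 fell and 2 rose in HepG2, and 4 of 6 tested fell in LM3, of which PPP1R3E passed the filter only through siNC. Glycogen targeting subunits of protein phosphatase moved apart in HepG2, where PPP1R3E (-1.49) and PPP1R3C (-1.01) fell and PPP1R3B rose (0.67). Of 5 listed genes of the pyruvate dehydrogenase complex and its phosphatases, 3 fell and 1 rose in HepG2 and 2 fell and 1 rose in LM3. DLD, a subunit of the complex, stood at 45.4% of siNC in HepG2 (-1.08) and at 52.5% in LM3, without overlap in either line. The phosphatase PDP1, which opposes the kinases, rose in both (0.76 and 0.25), although its LM3 groups overlapped. Of 7 listed hexosamine and nucleotide sugar genes, 4 fell and 3 rose in HepG2 and 5 fell and 1 rose in LM3. GFPT2, which starts the hexosamine route, rose in HepG2 (0.85) and fell in LM3 (-0.43). Of 10 further enzymes, 5 fell and 4 rose in HepG2, and 6 fell and 2 rose in LM3. Hypoxia-responsive genes outside the members, among them SLC16A3 of the carriers, fell in 8 and rose in 3 of 12 tested in HepG2. In LM3 they fell in 6 and rose in 2 of 11, with medians of -0.45 in HepG2 and -0.60 in LM3. They were not uniform, since BNIP3, a mitophagy receptor, fell (-1.23 and -0.84) while the peptide hormone ADM rose (1.47 and 1.74). At baseline all 12 were lower in LM3, where 40.6% of all tested genes were, with a median of -1.94, and 1 of them (ANGPTL4) passed the filter only through HepG2.

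Some values may be shared with other loci. In GENCODE v29, 8 of the 36 members have pseudogenes named after them. There are 62 for GAPDH, 13 for PGAM1, 6 for LDHA, 4 for ENO1, 3 for GYG1, 2 for ALDOA and 1 each for PGD and RPIA. The authors' counting could place reads of these pseudogenes on the parent gene. Exons of 12 members overlap genes on the opposite strand, among them ALDOC, PKLR, KHK, PDK1 and PDK2, and whether the counting used strand is not given in the sources used here. Exons of 4 members (ALDOA, GALT, GPI and PFKFB4) overlap another gene on the same strand.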

How the data were processed

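The signal values used here are the authors' normalized RSEM values per gene, as deposited; whether they are FPKM or TPM is not stated. According to the authors, reads were filtered with SOAPnuke, mapped with HISAT2 and aligned to a coding gene set with Bowtie2 before RSEM, and the authors tested with DESeq2. The labels name hg19, while the chromosome names in the tables are those of GRCh38. Library depth is unknown.

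The 12 libraries were read as they are. The 6 extra columns that repeat LM3 values in another table were not used, and 17 symbols turned into dates were restored. Because DESeq2 needs counts and these values are not counts, the test was limma 3.58.1 on log2(value + 1), in R 4.3.3. A gene was tested if it reached 1 in at least 3 libraries of the fit. Each knockdown and the 2 lines under siNC were fitted on 6 libraries, and the difference of effects on all 12. P-values were adjusted by Benjamini and Hochberg over all tested genes, and calls needed a limma adjusted p under 0.05. Tables and figures were made in Python 3.11.15 with pandas 2.3.3 and matplotlib 3.10.9.

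Members and the other lists were chosen with earlier results of these data known. By a rule set in the design, values in every library were given for 3 kinds of members. These were the largest called changes of each comparison in each direction, at least 4 and at most 8 where there were as many, the listed enzymes of regulated steps, and members called with opposite signs in the 2 lines and in the interaction. The alternatives were median-of-ratios scaling, quantile normalization, a pseudocount of 0.1, no filter on low values, a fit of all libraries, the replicate number as a block, and each replicate left out. Promoters came from RefSeq on GRCh38.p14 and exons from GENCODE v29.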

Additional observations from a re-analysis of the deposited data

Results flagged for a closer look

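The knockdown effect differed between LM3 and HepG2 in 15 of 36 members, a share near that of all tested genes (46.7%), so the count says nothing particular about the members. The differences (LM3 effect minus HepG2 effect, log2, limma interaction adjusted p under 0.05) were negative for PCK1 (-1.02), PDK4 (-0.92), ENO3 (-0.79), PFKFB3 (-0.67), PYGB (-0.65), PC (-0.58), ALDOC (-0.56), PDK3 (-0.43) and GYS1 (-0.29). They were positive for ENO1 (0.4), GBE1 (0.43), RPIA (0.48), GAPDH (0.54), GCKR (0.77) and PKLR (1.18). GCKR and PKLR were listed at or near 0 in LM3, where no decrease can be seen. What made the lines differ was not tested.

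The replicates are not stated to be separate cultures, the labels do not say which siRNA against FASRL was used in these libraries, and FASRL was not analysed here. The values cover a chosen set of genes whose selection is not described, and 19 of the 55 members were not analysed here. Protein levels and metabolic flux were not analysed here.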

How the results depend on the processing

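Of the members' values under other settings, 1808 had the same call, 25 gained a call, 31 lost one, and 5 turned sign with a call in at least 1 of the fits. These 5 all came with quantile normalization: ALDOA in LM3 (-0.21), GAPDH in HepG2 (0.042), LDHA in HepG2 (-0.16), PFKFB3 in LM3 (0.16) and the difference between lines for KHK (0.32). Quantile normalization also left 2 members lower past the fold threshold in HepG2 and 2 in LM3, where 4 and 4 had been found. What in the scaling made these values move was not tested.

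With each replicate left out in turn, the number of members higher in LM3 than in HepG2 under siNC was 3 to 5 (6 with all libraries). The number lower past the fold threshold in HepG2 was 2 to 5 (4 with all libraries). PKLR reached 1 only in the HepG2 siNC libraries, so leaving out any of these took it out of the test and the count.

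With the replicate number as a replicate block, 7 members were higher and 22 lower in HepG2, 2 and 22 in LM3, and 4 and 28 between the lines. PCK1 (0.28, limma adjusted p = 0.0529) and RPIA (0.16, limma adjusted p = 0.0508) lost their call between the lines. Deviations from the group mean were correlated over genes between siFASRL and siNC libraries. Same-numbered libraries gave 0.325, 0.377 and -0.208 in HepG2 and -0.082, 0.096 and -0.167 in LM3. Different-numbered libraries gave -0.464 to 0.304 in HepG2 and -0.115 to 0.178 in LM3. The highest HepG2 values were thus same-numbered, but not all same-numbered values were high. With 3 replicates per group these values cannot settle whether the numbers mark pairs.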
